A study of Mus musculus with 6 samples.

Results

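Respiratory complex I is the NADH dehydrogenase of the mitochondrial inner membrane. The genes described here carry an Nduf name, and all but Ndufa4 and Ndufa4l2 are its nuclear-encoded subunits and assembly factors. Members were the genes of the count table whose symbol starts with Nduf followed by a, ab, b, c, s, v or af and a number, with at least 60 counts over the 6 libraries. The table held 45 such symbols among 24391 genes, and 44 passed. Ndufs5 was listed at 0 counts in all 6 libraries and did not pass. All 44 members also passed the filter on low counts and entered the test. Ndufa4, now assigned to cytochrome c oxidase, and its paralog Ndufa4l2 match the rule on names. They are counted among the 44 members, called complex I genes below, in all sums, counts and medians.

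The libraries were made from brachiocephalic arteries of mice on a C57BL/6 background, taken after 18 weeks on a Western diet and labelled as atherosclerotic lesion, a mixture that includes smooth muscle cells and macrophages. There were 3 wild-type (WT) libraries and 3 Col15a1-/- (KO) libraries, 1 animal each per the design text. Col15a1 encodes the chain of collagen XV, a basement-membrane collagen. The series title speaks of a deletion specific to smooth muscle cells, whereas the sample labels give the genotype as Col15a1-/- with no Cre driver, and they name no Apoe genotype for either group. Col15a1 itself stood at 574, 407 and 501 CPM (depth-scaled counts, with TMM factors) in WT 1 to 3 and at 193, 198 and 91.0 CPM in KO 1 to 3, so the groups did not overlap.

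Complex I takes electrons from NADH through a flavin and a chain of iron-sulfur clusters in its matrix arm, passes them to ubiquinone, and pumps protons through its membrane arm. Its core subunits carry the chemistry and are shared with bacteria, accessory subunits surround them, and assembly factors help to build the complex and then leave it. Ucp1, the uncoupling protein of thermogenic adipocytes, lets protons back across the same membrane as heat, and the fat around arteries can hold such cells. The 7 complex I subunits encoded by mitochondrial DNA were not analysed here.

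The promoters of 4 members whose counts are described below are printed first, so that the proximal sequence of the genes can be read beside their levels. They are windows of 300 bases from RefSeq on GRCm38.p6, a later build than the mm9 of the count table, with 250 bases before and 50 after the gene start. All 4 genes lie on the minus strand, and capitals mark the matches to the motifs searched. The order is Ndufab1 at chr7:122101799-122102098, Ndufv1 at chr19:4012706-4013005, Ndufa6 at chr15:82354242-82354541 and Ndufc1 at chr3:51408906-51409205.
Ndufab1: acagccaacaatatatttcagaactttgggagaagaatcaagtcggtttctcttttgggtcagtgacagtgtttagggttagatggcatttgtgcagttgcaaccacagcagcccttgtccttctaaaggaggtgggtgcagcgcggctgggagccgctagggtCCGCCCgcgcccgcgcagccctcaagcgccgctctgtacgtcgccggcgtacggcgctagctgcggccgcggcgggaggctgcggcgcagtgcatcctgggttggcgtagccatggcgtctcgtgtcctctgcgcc
Ndufv1: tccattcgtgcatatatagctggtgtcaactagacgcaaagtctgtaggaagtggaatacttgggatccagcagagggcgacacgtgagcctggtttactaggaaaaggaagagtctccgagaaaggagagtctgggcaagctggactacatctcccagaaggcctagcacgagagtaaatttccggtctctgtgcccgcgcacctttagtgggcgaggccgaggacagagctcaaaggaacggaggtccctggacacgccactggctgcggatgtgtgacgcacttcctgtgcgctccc
Ndufa6: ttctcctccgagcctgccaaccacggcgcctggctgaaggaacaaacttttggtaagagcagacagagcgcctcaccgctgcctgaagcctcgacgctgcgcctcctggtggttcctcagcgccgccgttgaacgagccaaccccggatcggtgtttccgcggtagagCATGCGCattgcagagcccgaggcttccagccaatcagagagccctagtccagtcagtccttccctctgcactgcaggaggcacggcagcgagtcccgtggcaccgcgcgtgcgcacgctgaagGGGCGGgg
Ndufc1: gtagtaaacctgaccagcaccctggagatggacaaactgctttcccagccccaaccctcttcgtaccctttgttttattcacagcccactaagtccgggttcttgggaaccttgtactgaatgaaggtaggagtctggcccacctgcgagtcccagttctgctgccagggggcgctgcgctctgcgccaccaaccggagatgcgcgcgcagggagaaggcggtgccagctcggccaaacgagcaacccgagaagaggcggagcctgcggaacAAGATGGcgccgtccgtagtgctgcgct

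The motifs searched on both strands were GCGCATG for NRF1, CCGGAAG for ETS factors such as GABP, AAGGTCA for ERR, AAGATGG for YY1 and GGGCGG for SP factors. The Ndufa6 window held the NRF1 letters, read on the opposite strand, 82 bases before the start, and the SP letters 42 bases after it. The Ndufc1 window held the YY1 letters 22 bases after the start, and the Ndufab1 window held the SP letters, on the opposite strand, 86 bases before it. None of the 5 motifs was found in the Ndufv1 window. RefSeq windows were found for 38 of the 44 members (40 windows). The NRF1 letters were in 17.5% of the members' windows (7 of 40) and in 3.91% of all 32851 promoter windows. The YY1 letters were in 17.5% (7) against 6.34%, the SP letters in 52.5% (21) against 35.7%, the ETS letters in 12.5% (5) against 8.86% and the ERR letters in 5% (2) against 4.72%. A match describes these letters and does not show a bound factor. Ndufs1, Ndufa2, Ndufb9, Ndufaf6 and Ndufa4l2 were among those with no matched window.

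No complex I gene passed the test between KO and WT, and the values below describe these 6 libraries. Summed over the 44 members, the level was 1518, 1466 and 1319 CPM (WT 1 to 3) against 1559, 1779 and 2105 CPM (KO 1 to 3). KO 1 was only 1.03 times as high as WT 1, and KO 3 was 1.60 times as high as WT 3, the lowest library. The group means were 1434 ± 103 CPM (WT) against 1814 ± 275 CPM (KO) (SD, n = 3 each), a ratio of 1.26. The groups did not overlap on this scale. As a plain share of the counts, the members made up 0.150%, 0.162% and 0.127% in WT and 0.156%, 0.175% and 0.204% in KO, and there WT 2 lay above KO 1.

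In edgeR's quasi-likelihood test with Benjamini-Hochberg adjustment over the 15937 genes tested, 0 of 44 members had an adjusted p under 0.05, and 0% of all genes did. The members' adjusted p ran from 0.587 to 0.937. On data simulated with the spread of these libraries, the same test called no gene changed by as little as the members are here. The genes changed there were drawn at random and not from the members alone. The members' median SD of log2 CPM was 0.141 in WT and 0.252 in KO, against 0.201 and 0.269 over all genes. What the test could call for the members was thus not measured. A count of 0 does not show that the members are equal between the genotypes. Limma-voom called 0 members, with 0% of all genes called. DESeq2 also called 0 members, with a smallest adjusted p of 0.134, while it called 0.422% of all genes. At an unadjusted p under 0.05, 12 members were higher in KO in edgeR and 0 were lower, against 4.02% and 3.98% of all genes. DESeq2 put 11 members under the same unadjusted threshold, against 4.03% of all genes higher in KO, and limma-voom put 9 there, against 4.07%. Every KO library was above every WT library for 17 of the 44 members, against 8.33% of all genes, and the reverse held for 0 members, against 8.38%.

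The log2 fold change of KO over WT was positive for 43 of 44 members, against 60.9% of all genes. Its median was 0.31 over the members and 0.068 over all genes tested, and it ran from -0.071 for Ndufaf6 to 0.56 for Ndufc1. The median of the members moved with the libraries KO 3 and WT 3, and so did that of all genes. KO 3 held the highest value for 43 of 44 members, against 34.7% of all genes, with Ndufa1 the exception at 36.8 CPM in KO 2 and 36.7 CPM in KO 3. WT 3 held the lowest value for 31 members, against 16.1% of all genes. Without WT 3 the members' median was 0.17, against -0.017 over all genes, and 40 members were positive, against 46.8% of all genes. None of them then had an edgeR unadjusted p under 0.05, against 1.89% of all genes higher in KO. Without KO 3 the members' median was 0.20, against -0.003 over all genes. Then 40 members were positive, against 49.5%, and 6 were under that threshold, against 3.79%. Without KO 2 the threshold also held 6 members, against 3.25%, and without WT 1 it held 7, against 3.88%.

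**Figure D1:**
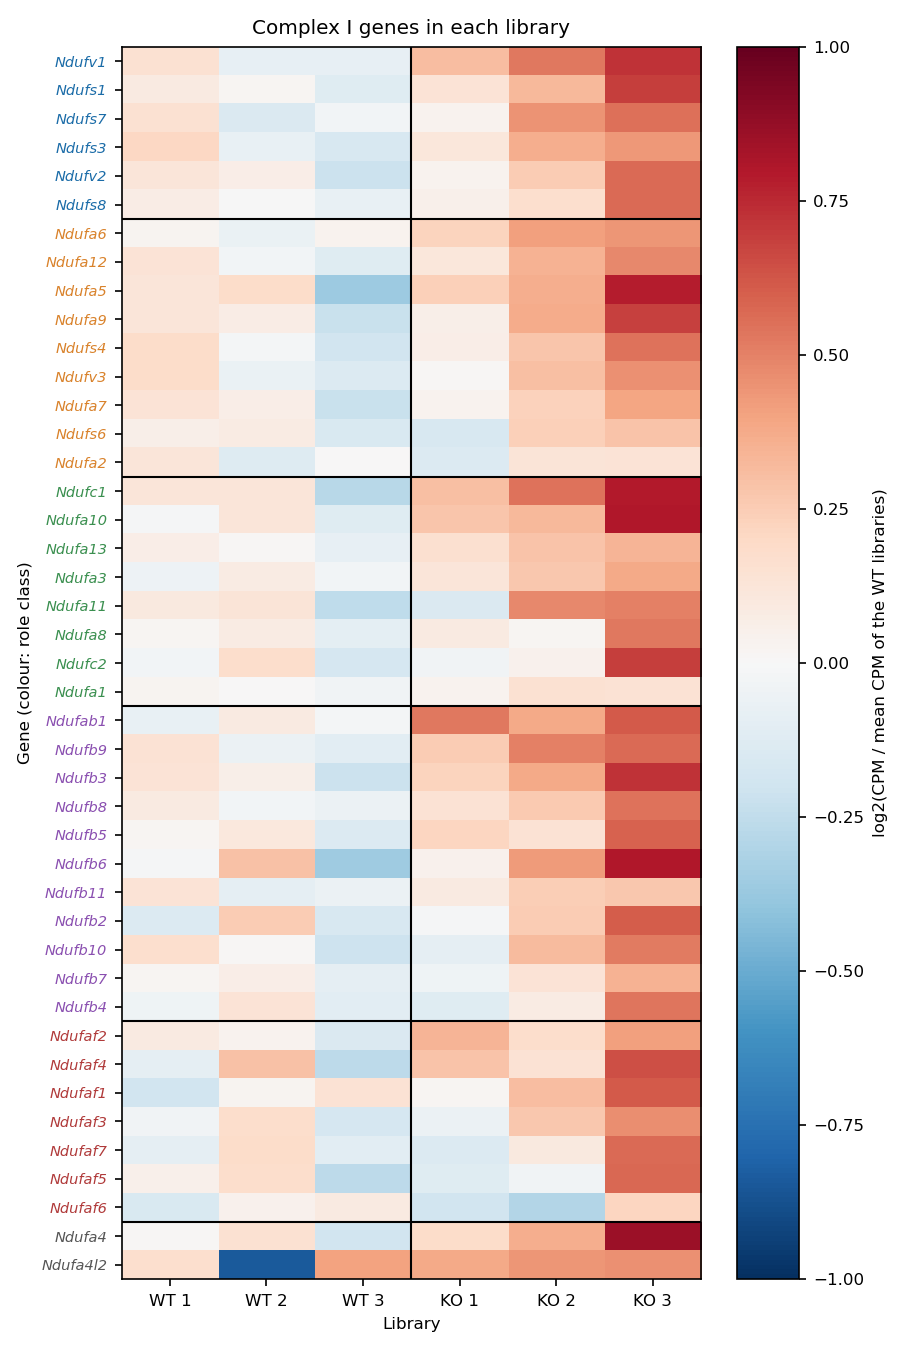
Level of 43 of the 44 complex I genes (vertical axis, grouped by role) in each of the 6 libraries (horizontal axis), as log2 of its CPM over the mean CPM of the 3 WT libraries (colour scale). The KO 3 column is the highest for 42 of these genes and the WT 3 column the lowest for 31.

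The core subunits had positive log2 fold changes in 7 of 7 genes, with a median of 0.36. Ndufv1, which binds the flavin and oxidises NADH (chr19:4007499-4012755 on mm9), stood at 81.3, 69.4 and 69.2 CPM (WT 1 to 3) against 90.5, 106 and 121 CPM (KO 1 to 3). All 3 KO libraries were above all 3 WT libraries, and the difference was 0.53 ± 0.14 on the log2 scale (standard error; edgeR p 0.00962, Benjamini-Hochberg adjusted p 0.587). Ndufs1, the large iron-sulfur subunit of the NADH-oxidising end, was at 89.4, 85.4 and 77.5 CPM (WT) against 92.4, 105 and 136 CPM (KO). KO 1 was close to WT 1 and KO 3 stood well above the rest, with a log2 difference of 0.40 ± 0.16 (edgeR adjusted p 0.617). Its exons share 248 bases with Ino80dos on the opposite strand, and counting without strand cannot separate such reads. The core gene with the largest p was Ndufs8, an iron-sulfur subunit near ubiquinone, at 32.7, 31.0 and 29.4 CPM (WT) against 32.2, 34.9 and 46.0 CPM (KO). Its groups overlapped between WT 1 and KO 1 (log2 difference 0.28, edgeR adjusted p 0.706).

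The accessory subunits of the matrix arm were positive in 9 of 9 genes, with a median log2 fold change of 0.31. Against 4.02% of all genes, 1 of the 9 was higher in KO at an edgeR unadjusted p under 0.05. That gene was Ndufa6, an LYR-motif protein that docks an acyl carrier protein on the matrix arm (chr15:82180569-82184721). It was at 40.2, 37.6 and 40.3 CPM (WT) against 46.0, 52.2 and 53.6 CPM (KO). The WT libraries lay close together and below every KO library, with a log2 difference of 0.36 ± 0.11 (standard error; edgeR p 0.0135, adjusted p 0.587). Ndufa12, the paralog of the assembly factor Ndufaf2, was at 29.4, 26.2 and 24.5 CPM (WT) against 28.9, 34.0 and 37.3 CPM (KO), so that WT 1 overlapped KO 1. Ndufa5, of the ubiquinone-binding module, was at 18.7, 19.6 and 13.4 CPM (WT) against 20.4, 22.2 and 29.7 CPM (KO). Its groups did not overlap, but the low WT 3 and the high KO 3 made most of the log2 difference of 0.48 ± 0.22 (edgeR adjusted p 0.634). Ndufa2, a thioredoxin-fold subunit of the NADH-oxidising module, was at 44.5, 37.4 and 41.1 CPM (WT) against 37.3, 44.9 and 45.1 CPM (KO). KO 2 and KO 3 lay just above the WT range and KO 1 just below it, and the log2 difference of 0.050 ± 0.13 (edgeR adjusted p 0.928) turned to -0.012 without WT 2 and -0.021 without WT 3. Its exons share 60 bases with Tmco6 on the opposite strand.

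In the proximal membrane arm, next to the matrix arm, the 8 accessory subunits measured were all positive, with a median of 0.27. Every KO library was above every WT library for 5 of the 8, against 8.33% of all genes. Ndufc1, a small membrane subunit (chr3:51209401-51212877), had the highest fold change of the members. It was at 15.5, 15.5 and 11.8 CPM (WT) against 17.5, 20.8 and 24.8 CPM (KO). The 3 KO libraries were spread out but all above WT, with a log2 difference of 0.56 ± 0.19 (standard error; edgeR p 0.0228, adjusted p 0.587). Ndufa10, which has a nucleoside kinase fold (chr1:94336296-94370335), was at 51.3, 56.3 and 47.6 CPM (WT) against 62.7, 64.9 and 90.2 CPM (KO). KO 3 stood apart from KO 1 and KO 2, and the log2 difference was 0.49 ± 0.17 (edgeR adjusted p 0.587). Ndufa13, also known as GRIM-19, was at 59.1, 56.9 and 53.4 CPM (WT) against 63.2, 68.7 and 71.6 CPM (KO). The groups were separate at a small log2 difference of 0.26 ± 0.098 (edgeR adjusted p 0.602), and 344 exon bases are shared with Tssk6 on the opposite strand. Ndufa1, a small X-linked membrane subunit, was nearly level at 33.7, 33.3 and 32.4 CPM (WT) against 33.9, 36.8 and 36.7 CPM (KO). KO 1 was within 1 CPM of WT 1, and the log2 difference was 0.11 ± 0.097 (edgeR adjusted p 0.838).

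The 11 accessory subunits of the distal membrane arm were all positive, with a median of 0.33. Every KO library was above every WT library for 5 of the 11, against 8.33% of all genes. Ndufab1, the mitochondrial acyl carrier protein (chr7:129231558-129245362), had the smallest unadjusted p of the members. It was at 9.50, 10.7 and 9.89 CPM (WT) against 14.4, 13.0 and 15.3 CPM (KO). Here KO 1 was above KO 2, unlike the summed level, and the log2 difference was 0.51 ± 0.13 (standard error; edgeR p 0.00794, adjusted p 0.587). Ndufb9, another LYR-motif subunit that binds the acyl carrier protein (chr15:58765365-58771044), was at 54.1, 47.0 and 45.4 CPM (WT) against 58.3, 69.2 and 72.1 CPM (KO). All KO libraries exceeded all WT libraries, by 0.45 ± 0.13 on the log2 scale (edgeR adjusted p 0.587). Ndufb3, a small membrane subunit, was at 30.7, 29.1 and 24.0 CPM (WT) against 32.6, 36.3 and 46.1 CPM (KO), again without overlap (log2 difference 0.45, edgeR adjusted p 0.617). Ndufb4 was at 13.6, 15.5 and 13.1 CPM (WT) against 12.9, 14.8 and 20.3 CPM (KO). Only KO 3 was above the WT range, and its log2 difference of 0.19 ± 0.20 (edgeR adjusted p 0.870) became -0.019 without KO 3.

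Among the 7 assembly factors 6 were positive, and the median was 0.24. None had an unadjusted p under 0.05 in edgeR, against 4.02% of all genes higher in KO. Against 8.33% of all genes, 1 of the 7 had every KO library above every WT library. That was Ndufaf2, which is replaced by its paralog Ndufa12 late in assembly, at 5.73, 5.51 and 4.87 CPM (WT) against 6.81, 6.07 and 7.14 CPM (KO). The log2 difference was 0.31 ± 0.17 (edgeR adjusted p 0.685). Ndufaf4, which helps to build the ubiquinone-binding module, was at 14.4, 18.8 and 12.8 CPM (WT) against 18.7, 16.9 and 23.9 CPM (KO), with WT 2 inside the KO range. Ndufaf1, of the complex that assembles the membrane arm, was at 8.32, 9.71 and 10.5 CPM (WT) against 9.66, 11.8 and 14.5 CPM (KO), so that WT 2 and WT 3 overlapped KO 1. Ndufaf6, an assembly factor related to phytoene synthases, was the only member with a negative log2 difference. It was at 3.46, 3.97 and 4.10 CPM (WT) against 3.36, 3.14 and 4.46 CPM (KO), and the value of -0.071 ± 0.22 (edgeR adjusted p 0.937) turned to 0.024 without KO 2. Ndufaf5, which hydroxylates the core subunit Ndufs7, was at 9.78, 10.6 and 7.84 CPM (WT) against 8.67, 9.16 and 14.0 CPM (KO). Its log2 difference of 0.17 turned to -0.021 without WT 3 and to -0.079 without KO 3.

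Ndufa4 carries a complex I name but is now assigned to cytochrome c oxidase, and Ndufa4l2 is its hypoxia-inducible paralog. Ndufa4 (chr6:11850373-11857446) was at 55.3, 60.9 and 48.0 CPM (WT) against 62.0, 70.5 and 99.0 CPM (KO). Its groups were separate, with KO 3 far above the rest and a log2 difference of 0.50 ± 0.20 (standard error; edgeR adjusted p 0.617). Ndufa4l2 (chr10:126951995-126954210) was at 6.41, 3.19 and 7.54 CPM (WT) against 7.42, 7.77 and 7.85 CPM (KO). The 3 KO libraries were almost equal, WT 3 lay among them, and WT 2 stood far below all others, a pattern that no other member named here had. Its log2 difference was 0.43 ± 0.33 (edgeR adjusted p 0.798). Its exons share 32 bases with Shmt2 on the opposite strand.

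**Figure D2:**
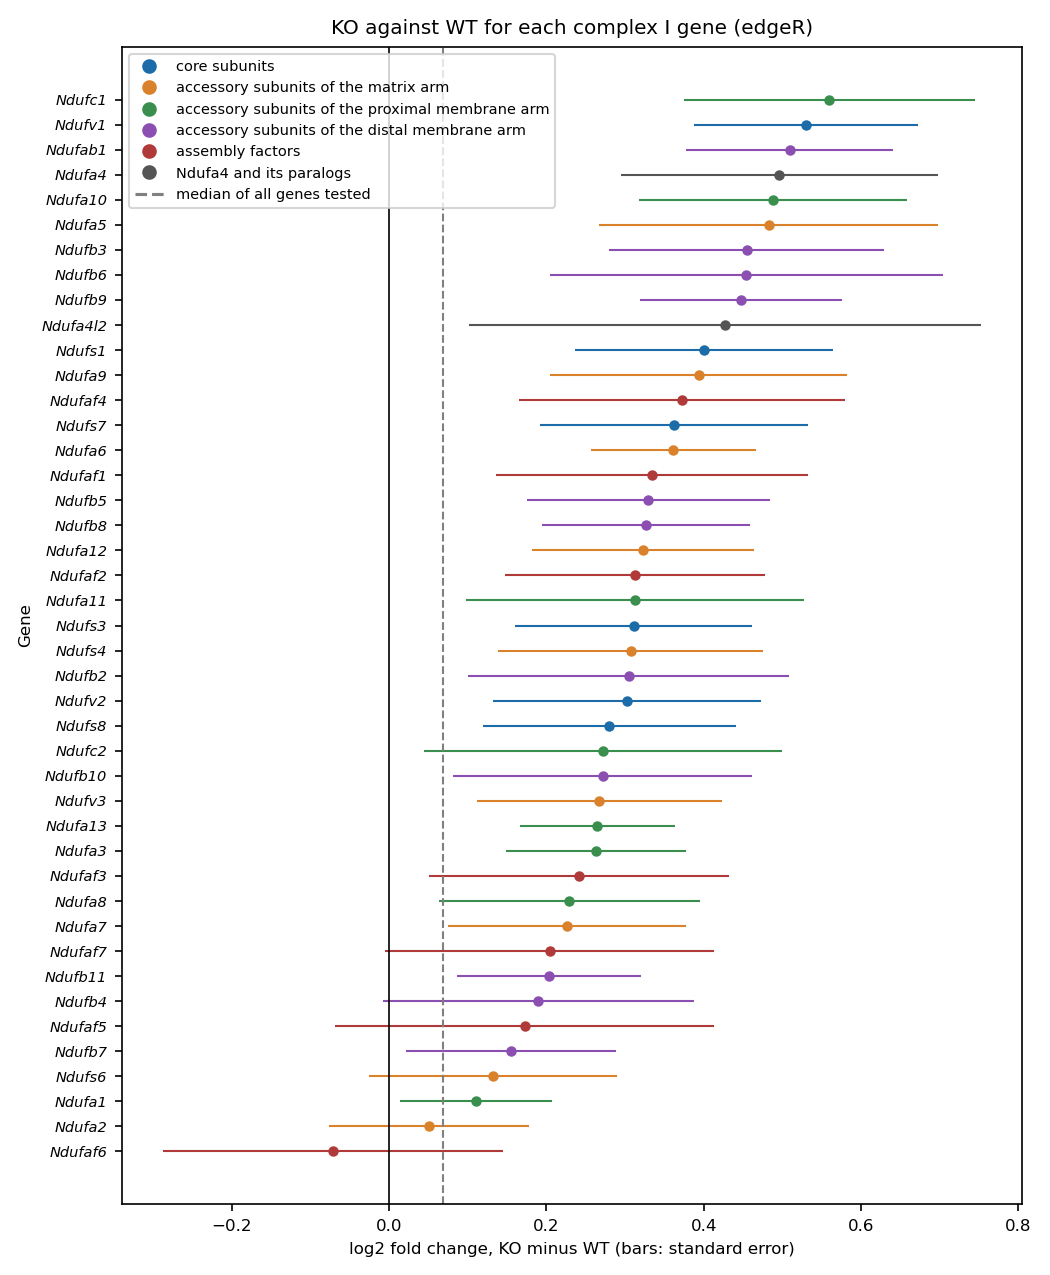
Log2 fold change of KO over WT (horizontal axis) for 43 of the 44 complex I genes (vertical axis), with its standard error as a bar, coloured by role, from edgeR. Of the 43 points 42 lie above 0, the dashed line at 0.068 is the median of all genes tested, and no gene passed the adjusted threshold.

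Levels among the members were compared as CPM per kilobase of exon, averaged over the 6 libraries. Ndufa4 was the highest at 134, followed by Ndufb8 at 102 and Ndufa3 at 92.6. The median over the members was 40.5. The lowest were the assembly factors Ndufaf4 at 4.84, Ndufaf5 at 3.66 and Ndufaf6 at 3.47, and the highest level was 38.6 times the lowest. For 0 of the 43 pairs of neighbours in this order were the ranges over the 6 libraries separate, so the order is firm only between genes far apart in it.

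**Figure D3:**
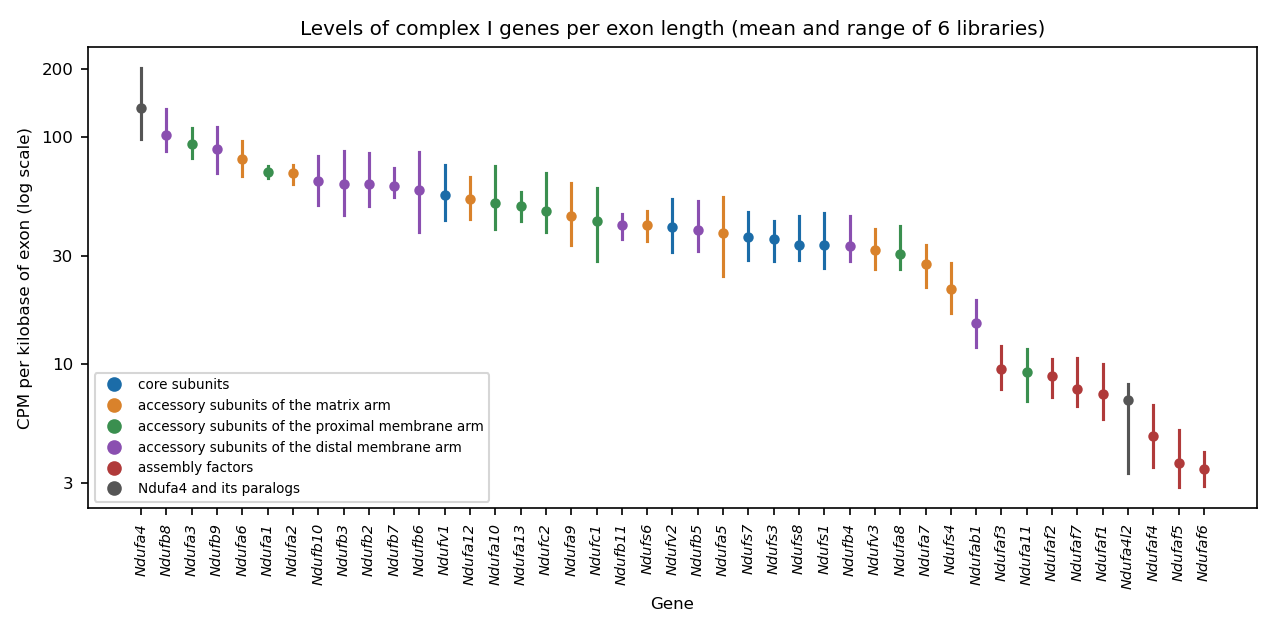
Level of 43 complex I genes per length (CPM per kilobase of exon, log scale) in order of its mean over the 6 libraries (point), with a line from the lowest to the highest library. Levels run from 134 for Ndufa4 down to 3.47 for Ndufaf6, and ranges of neighbouring genes overlap.

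Ucp1 (chr8:85814247-85822355 on mm9) was at 121, 25.3 and 95.3 CPM (WT 1 to 3) against 192, 225 and 289 CPM (KO 1 to 3). Every KO library was above every WT library, and the group means were 80.6 ± 49.6 and 235 ± 48.9 CPM (SD, n = 3 each), a ratio of 2.92. The difference of mean log2 CPM was 1.80, with an exact two-sided permutation p of 0.1, the smallest that the 20 orderings allow. In edgeR the adjusted p of Ucp1 was 0.591.

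The 3 KO libraries took the same order in Ucp1 as in the summed complex I level, KO 1 below KO 2 below KO 3, while the WT libraries did not. WT 2 had the lowest Ucp1 of all 6 libraries, yet its summed complex I level of 1466 CPM was above that of WT 3. Ucp1 differed 4.79 times between WT 1 and WT 2, and the summed complex I level 1.03 times. Between KO 3 and KO 1, whose Ucp1 levels are given above, the complex I sum differed 1.35 times. Both measures come from the same libraries and share their scaling.

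**Figure D4:**
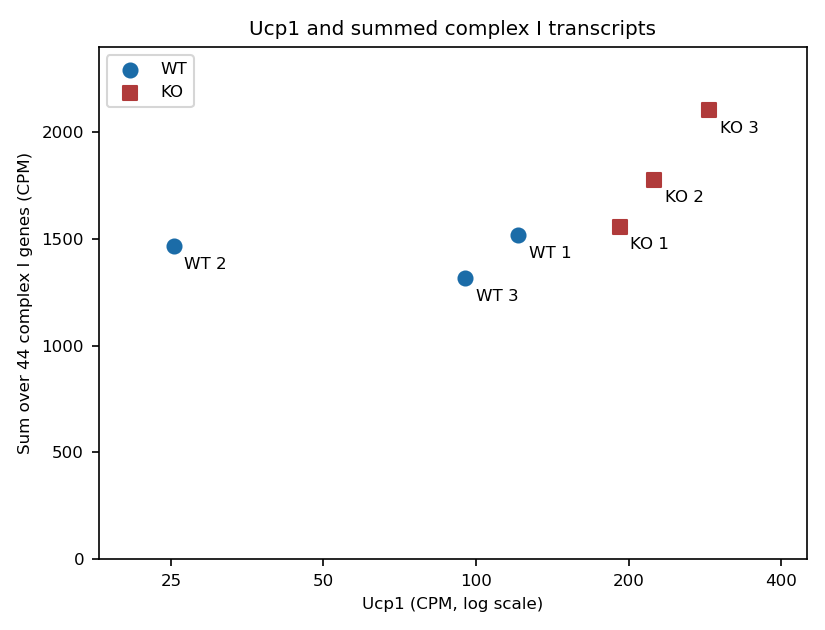
Ucp1 (CPM, log scale, horizontal axis) against the summed level of the 44 complex I genes (CPM, vertical axis), 1 point per library. The KO libraries lie above the WT libraries on both axes, and WT 2 has the lowest Ucp1, 25.3 CPM, at a complex I sum of 1466 CPM.

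The relation was fitted per gene in edgeR with genotype and the library's log2 CPM of Ucp1 in one model, so that the slope is the log2 change of a gene per doubling of Ucp1 within genotype. No member had an adjusted p under 0.05 (0 of 44 in edgeR and 0 in DESeq2, and 0% of all genes in edgeR). At an unadjusted p under 0.05 there was 1 of 44 members in edgeR, near the share of 2.13% of all genes. DESeq2 also put 1 member there, and no share over all genes is given here for its slopes. Slopes were positive for 23 of 44 members, against 52.1% of all genes, and their median was 0.0083, against 0.0068 over all genes. The highest slopes were 0.50 ± 0.15 for Ndufa4l2 (standard error; edgeR p 0.0194, adjusted p 0.999), 0.15 for Ndufs7, a core iron-sulfur subunit, and 0.11 for Ndufa2. The lowest were -0.16 for Ndufaf4, -0.12 for Ndufb2 and -0.12 for Ndufb6, small subunits of the distal membrane arm in the last 2 cases.

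These slopes rested on WT 2. Rn45s, a ribosomal RNA gene, held 2.04% of the counts in WT 2 and 6.25% to 10.4% in the other libraries. Nerve markers summed to 2157 CPM in WT 2 and 4311 CPM in KO 3, against 172 to 225 CPM in the other libraries. In the fit of all 6 libraries their median slope on Ucp1 was -1.29. The part of Rn45s and of the nerve transcripts in the slopes was not tested. The other WT libraries, WT 1 and WT 3, were close in Ucp1, at 121 and 95.3 CPM. The log2 CPM of Ucp1 was 6.93 in WT 1 and 6.57 in WT 3, and 7.59, 7.81 and 8.16 in KO 1 to 3. Without WT 2, Ucp1 thus did not double within either genotype, and slopes per doubling reach beyond the range measured. Without WT 2, 43 of 44 slopes were positive, against 50.9% of all genes, with a median of 0.71 against 0.018 over all genes. At an unadjusted p under 0.05, 18 members then had a positive slope, against 8.2% of all genes, and none passed adjustment in edgeR (smallest adjusted p 0.355). Ndufb6 was at 26.1, 32.2 and 20.5 CPM (WT) against 27.1, 35.2 and 45.6 CPM (KO), and without WT 2 its slope was the highest of the members at 1.21. Ndufa4l2 was then the only member with a negative slope, -0.082, and Ndufab1 had a slope of 0.10. Leaving out KO 3 as well as WT 2 gave a median of 0.56, with 40 positive slopes, against 48.7% of all genes. In that fit 15 members had a positive slope at an unadjusted p under 0.05, against 6.49% of all genes. Only WT 1, WT 3, KO 1 and KO 2 were left, so almost no spread remained to judge the slopes by. The Ucp1 range in KO was then narrower still, and the fit is no separate check of the slopes without WT 2. Leaving out KO 3 alone gave a median of -0.022, and 0 members passed adjustment in edgeR (smallest adjusted p 0.0639) while 9.07% of all genes did.

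**Figure D5:**
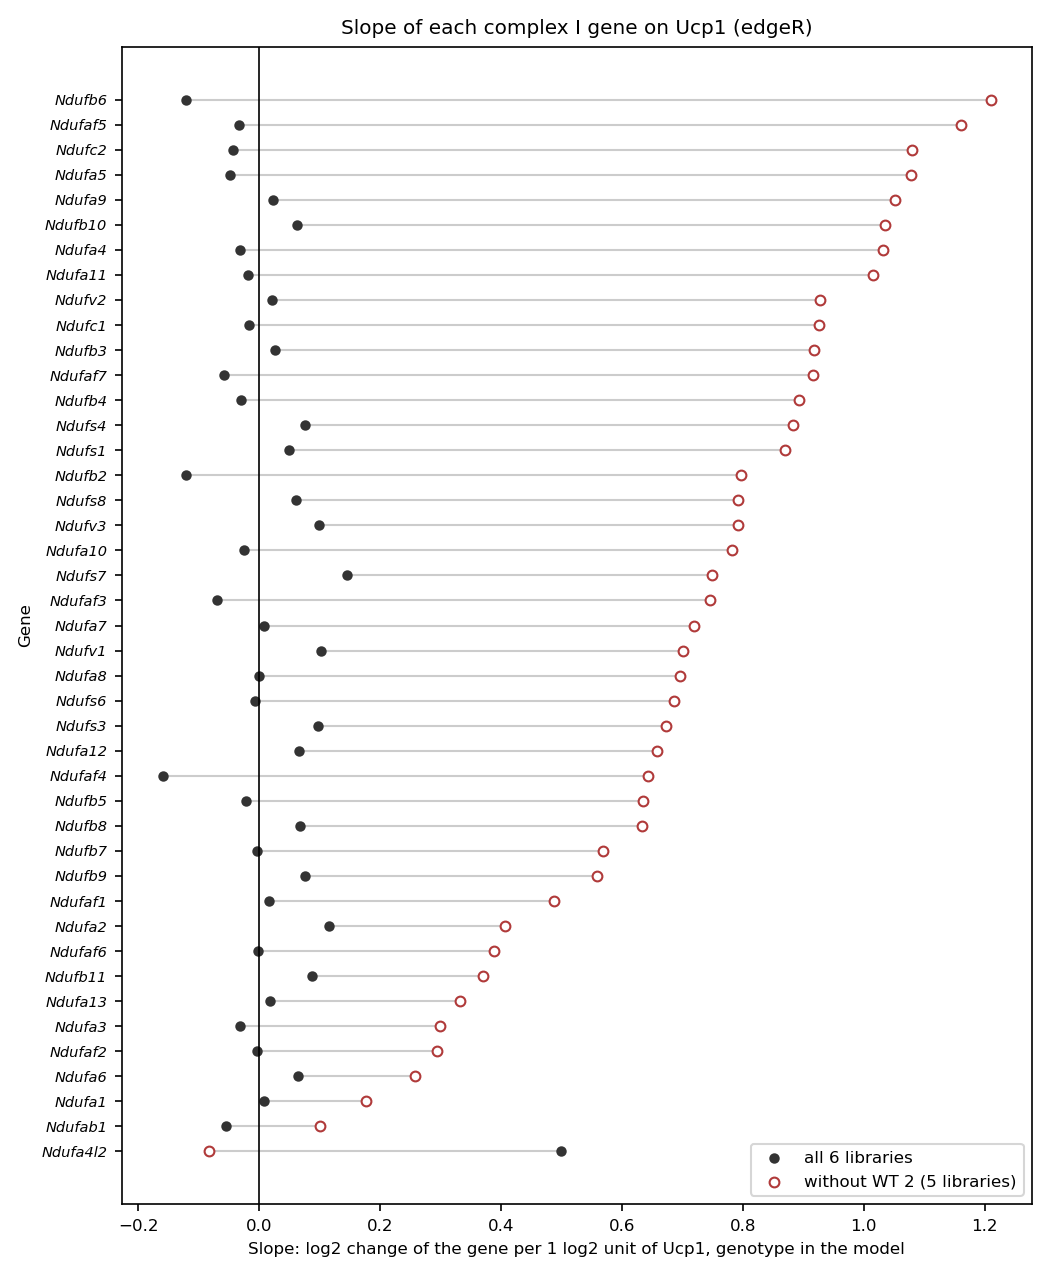
Slope of 43 complex I genes on Ucp1 (log2 change per doubling of Ucp1, genotype in the model, edgeR) with all 6 libraries and without WT 2. The median over all 44 genes is 0.0083 with all libraries and 0.71 without WT 2, and Ndufa4l2 is the highest in the first and the lowest in the second. Without WT 2, Ucp1 varies by less than a doubling within each genotype.

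With Ucp1 in the model, the KO minus WT term was positive for 41 of 44 members, against 52.1% of all genes, with a median of 0.26 against 0.017. It was under an unadjusted p of 0.05 for 1 member, Ndufab1, against 0.427% of all genes, and the smallest adjusted p in edgeR was 0.998. The sign turned for Ndufa4l2, to -0.39, and for Ndufa2, to -0.15. Because the Ucp1 ranges of the genotypes do not overlap, genotype and Ucp1 cannot be told apart over their whole range. The KO minus WT term here also uses the slopes fitted on all 6 libraries, which rested on WT 2. The members' median slope was 0.0083 with all libraries and 0.71 without WT 2.

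Genes around complex I were read from lists. Of 11 measured assembly factors without an Nduf name, 9 had a positive log2 fold change, the median was 0.15 and 0 passed the edgeR test. Tmem70, which acts in the assembly of complex I and ATP synthase, was at 18.0, 18.0 and 16.2 CPM (WT) against 22.3 ± 0.270 CPM in KO (mean and SD, n = 3), tight in both groups (log2 difference 0.36, edgeR adjusted p 0.587). Foxred1, an oxidoreductase-like assembly factor, averaged 20.9 ± 1.72 CPM (WT) against 26.0 ± 2.34 CPM (KO) (SD, n = 3 each; log2 difference 0.31, edgeR adjusted p 0.617). Of 10 measured nuclear regulators of respiratory genes 8 were positive, with a median of 0.21 and 0 past the edgeR test. Ppargc1a, the coactivator that drives mitochondrial gene programmes, was at 9.50, 7.60 and 12.2 CPM (WT) against 19.2, 15.1 and 18.8 CPM (KO). Its groups did not overlap (log2 difference 0.85, edgeR adjusted p 0.587), and it also stands on the list of thermogenic fat markers. Its relative Ppargc1b was at 7.05, 5.95 and 9.85 CPM (WT) against 16.2, 11.9 and 16.5 CPM (KO) (log2 difference 0.96, edgeR adjusted p 0.587). For both coactivators KO 2 was the lowest KO library, whereas the complex I sum was lowest in KO 1. The medians of 2 other respiratory complexes were above the 0.31 of the complex I members. They were 0.41 over 4 complex II subunits and 0.46 over 9 complex III subunits, all positive and none past the edgeR test. DESeq2 called 1 of these complex III subunits, Uqcr10 (DESeq2 adjusted p 0.0143), and 0 complex II subunits, against 0.422% of all genes.

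Summed markers of several cell types also differed between the libraries. The thermogenic fat markers, 9 of 9 with a positive log2 fold change, summed to 522, 215 and 419 CPM (WT 1 to 3) against 674, 724 and 747 CPM (KO 1 to 3). The general adipocyte markers, 14 of 14 positive, summed to 967 to 2061 CPM (WT) against 2123 to 3191 CPM (KO), the lowest in WT 2 and the highest in KO 1. Skeletal muscle markers, 12 of 12 positive, summed to 124, 17.2 and 15.0 CPM (WT 1 to 3) against 436, 60.4 and 24.8 CPM (KO 1 to 3). Cardiac markers, 9 of 9 positive, summed to 131 to 222 CPM (WT) against 219 to 287 CPM (KO). Of these cardiac sums, Ryr2 alone held 108 to 137 CPM (WT) and 155 to 229 CPM (KO). By mean log2 CPM of the cardiac markers, WT 3 at 3.12 lay above KO 1 at 2.41 and KO 3 at 2.47. Muscle and brown fat are rich in mitochondria. Macrophage markers were negative in 10 of 10 genes, at 2060 to 2364 CPM (WT) against 685 to 1479 CPM (KO). Smooth muscle markers, 7 of 7 positive, summed to 5382 to 9526 CPM (WT) against 5711 to 14261 CPM (KO), and endothelial markers, 6 of 7 positive, to 864 to 1548 CPM and 1071 to 1570 CPM. Nerve markers, 12 of 12 positive, ranged from 172 to 225 CPM in 4 libraries, with WT 2 at 2157 CPM and KO 3 at 4311 CPM. Without both WT 2 and KO 3, 42 of 44 members were positive, against 50.5% of all genes. The members' median was then 0.20, against 0.0026 over all genes, and 8 had an unadjusted p under 0.05, against 4.35% of all genes. In such bulk samples, fewer cells of a type and less RNA per cell cannot be told apart, and the part of these cell types in the complex I values was not tested.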

How the data were processed

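The RNA of 6 arteries was sequenced, and the authors deposited raw counts per gene. Per the file headers, featureCounts 1.4.6-p4 assigned reads to exons of mm9 genes with no strand option set. CASAVA, STAR 3.0 and DESeq2 are named in the submitters' processing notes. Counted reads per library ranged from 22223584 to 26982005, 32.6% to 36.9% of the alignments.

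Genes were filtered with filterByExpr, scaled by TMM and tested with edgeR 4.0.16 (R 4.3.3) in a fit of all 15937 genes with no replicate block, two-sided, at an adjusted p of 0.05. A second model added the log2 CPM of Ucp1 (prior count 2). Ucp1 was left out of the genes tested for the slope, but not for the KO minus WT term. DESeq2 1.42.0, limma-voom (limma 3.58.1), other scalings and filters, a replicate block and leaving out libraries were alternatives. The test was run on data simulated with the means, depths and per-gene spread of these libraries, with changes given to randomly drawn genes. Median fold changes and slopes were recovered within tolerance, only some of the large changes were called, and none of the members' size was. Same-numbered libraries deviated together with correlations of 0.43, -0.68 and -0.58, so the numbers were not read as pairs. P-values measure only the spread between these samples.

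Each role class has its 3 members of smallest and its 1 member of largest unadjusted p named, with the 3 highest and 3 lowest slopes, members of negative fold change, Ndufa4, Ndufa4l2 and up to 2 genes of each further list. Members and lists were chosen with earlier results of these data known. One member is not reported on its own here and is not drawn in the plots, and it enters the sums, counts and medians.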

Additional observations from a re-analysis of the deposited data

How the results depend on the processing

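The number of genes past the adjusted threshold, 0 in edgeR, was 63 in DESeq2 and 1 without WT 2 and KO 3, an alternative chosen after seeing the data. The count of members past it was 0 under every alternative run. The median log2 fold change of the members was 0.29 with DESeq2's size factors, 0.28 with upper-quartile scaling and 0.26 with total counts, and 0.17 to 0.36 when single libraries were left out. The median slope on Ucp1 ran from -0.051 to 0.71 when single libraries were left out, and was 0.56 without WT 2 and KO 3; the cause was not tested. The difference of Ucp1 in mean log2 CPM ran from 1.10 to 2.23 over the left-out libraries.

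With the replicate number as a replicate block, 0 genes and 0 members passed in edgeR, the median log2 fold change of the members was 0.31, the median slope was 0.046, and 2 of 44 members were higher in KO at an unadjusted p under 0.05, against 2.33% of all genes. A block in DESeq2 was not run.

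Of the single genes named, the sign turned for 5. With Ucp1 in the model the value was -0.15 for Ndufa2 and -0.39 for Ndufa4l2, and without WT 2 and KO 3 it was -0.067 for Ndufa2. With single libraries left out, Ndufa2 ran from -0.021 to 0.11 (-0.012 without WT 2, -0.021 without WT 3), Ndufaf5 from -0.079 (without KO 3) to 0.27 (-0.021 without WT 3), Ndufaf6 from -0.24 to 0.024 (without KO 2) and Ndufb4 from -0.019 (without KO 3) to 0.26. The causes were not tested. The spread between the 3 libraries a group limits these comparisons: changes of the members' size, given to randomly drawn genes, were not called on data simulated with it.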
